A study of Mus musculus with 6 samples.

Results

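The glycolysis and hypoxia-responsive genes described here are 38 mouse genes, chosen by symbol from a fixed list and found in the table of raw counts through their Ensembl identifiers. The list holds 3 transporters of glucose and lactate, 15 genes for glycolytic enzymes, both common lactate dehydrogenase genes, 4 pyruvate dehydrogenase kinases, 2 enzymes that make and break down fructose 2,6-bisphosphate, 9 other hypoxia-responsive genes and the 3 subunits of hypoxia-inducible factor (HIF). They take up 39 of the 55401 lines of the table, since Aldoa is listed under a second identifier, ENSMUSG00000114515, which held 0 counts in every library. Of the 38 genes, 37 passed the filter on low counts and were among the 14661 genes tested; the exception, Hif1a, was listed at 0 throughout.

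RNA came from ADC106, a mouse line of angiosarcoma, a tumour of the cells that line blood vessels. Cells received 12.5 nM of either a mimic labelled NC, the control, or a mimic of the microRNA miR-497, and were harvested after 3 days; the genotype entry in the labels reads WT for the first group and miR-497 overexpression for the second, in the same line and medium. There were 3 poly(A)-selected libraries in each group, of 25777676 to 36159499 counts. The labels name neither hypoxia nor any other treatment, and everything below rests on 1 cell line and 1 time point. The labels do not say whether the 3 libraries came from separate cultures, so the p-values measure the spread between these libraries, which may be technical.

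Glycolysis splits glucose into pyruvate, which enters the mitochondria or is reduced to lactate and exported. HIF is a pair of an oxygen-sensitive alpha subunit (Hif1a or Epas1) and Arnt; with oxygen present, prolyl hydroxylases of the Egln family mark the alpha subunit for binding by Vhl and destruction, and without it the pair binds short elements around the letters ACGTG and raises transcripts for glucose uptake, glycolysis, lactate export and pH control. Endothelial cells are known to draw most of their energy from glycolysis even when oxygen is plentiful. MicroRNAs lower their targets mainly by pairing of the seed, bases 2 to 8 of the mature strand, with sites in the 3' UTR.

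The sequences below show the seed and the places in the 3' UTRs of these genes that can pair with it. The mature strand is mouse miR-497a-5p from RefSeq (GRCm38.p6, chr11:70234730-70234751, plus strand), with the seed in capitals; the labels do not state the sequence of the mimic. Each site is a 29-base stretch of the longest annotated 3' UTR (GENCODE M21, GRCm38), read 5' to 3' on the strand of the gene, with the letters that match the seed in capitals. The searched letters were TGCTGCT (7mer-m8), TGCTGCTA (8mer), GCTGCTA (7mer-A1) and GCTGCT (6mer), on the sense strand, where each longer match contains the 6mer. Shown are both 7mer sites of Pfkl, the 8mers of Pfkp and Egln3, 1 site each for the other lower genes that have one, and those of Pdk4, which was higher, and Slc2a1, which did not pass the test.
miR-497a-5p: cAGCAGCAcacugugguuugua
Pfkl, chr10:77988060-77988088, minus strand: gggtctactgTGCTGCTctggggctcttc
Pfkl, chr10:77987309-77987337, minus strand: ttacgtgagcTGCTGCTgggtccatcctc
Pfkp, chr13:6580217-6580245, minus strand: ggctgtgagcTGCTGCTAgttggaagcta
Egln3, chr12:54179438-54179466, minus strand: ccctcgtttcTGCTGCTActtccccaact
Aldoa, chr7:126795305-126795333, minus strand: ccatcactctTGCTGCTgccctcgtgtgc
Hk2, chr6:82725164-82725192, minus strand: tctctgctaaTGCTGCTttgtgtgatctt
Eno1, chr4:150248575-150248603, plus strand: tggagccaccaGCTGCTAggtcctctatc
Slc16a3, chr11:120960512-120960540, plus strand: cctggaagaaTGCTGCTcagatgcacggg
Pdk4, chr6:5485382-5485410, minus strand: tctgtggcatTGCTGCTtcgtgaatgtgt
Slc2a1, chr4:119136631-119136659, plus strand: aaagcaagacTGCTGCTcagatctattca

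The label of the cells was checked against marker genes, and the whole table gives the scale for what follows. Of 14 endothelial markers 13 were tested, with a summed level of 10176.2 to 10877.1 CPM (counts scaled to library size with TMM) in NC and 9772.2 to 10248.0 CPM in miR-497 libraries; 7 were higher and 5 lower, and Sox17 had at most 1 count. Leukocyte markers summed to 9.34 to 9.71 CPM in NC and 15.7 to 21.0 CPM in miR-497 libraries with 2 of 6 tested, and Cd3e was listed at 0. Most of these sums was Cd68, with means of 8.25 and 17.5 CPM, and Csf1r, the other tested gene, was not called. Fibroblast markers summed to 154.7 to 162.9 and 173.5 to 207.5 CPM with 4 of 6 tested and Lum at 0, smooth muscle and pericyte markers to 58.6 to 62.1 and 90.5 to 99.2 CPM with 6 of 6 tested, and adipocyte markers, almost wholly Fabp4, to 118.0 to 125.8 and 144.2 to 154.4 CPM with 1 of 5 tested and Plin1 and Lep at 0. The 6 epithelial markers summed to 0.466 to 1.21 and 0.459 to 1.63 CPM, with 1 tested. The part of these levels in the results below was not tested, and in bulk RNA fewer cells of a type and less RNA per cell cannot be told apart. Over all genes, 49.8% were called, that is, had an adjusted p under 0.05 by the quasi-likelihood F-test of edgeR (Benjamini-Hochberg over all genes tested), so a call alone says little of a gene in this experiment.

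Among the 37 tested genes of the list, 10 were higher (23.8% of all genes tested) and 13 lower (26.0% of all genes tested) with the miR-497 mimic, and 14 did not pass the test. Their median log2 fold change, miR-497 over NC, was 0.01, beside -0.02 over all genes tested. The 3 libraries of one group stood apart from the 3 of the other for 26 of the 37 genes, 13 above and 13 below, beside 57.4% of all genes tested (27.8% above and 29.6% below). Changes of at least 2-fold were found for Car9, which was higher (3.63% of all genes tested were called and at least 2-fold higher), and for Pfkl, which was lower (5.19% at least 2-fold lower). Calls made up 62.2% of the tested genes of the list and 49.8% of all genes tested, so changes were common in both, and the account below is of which genes they were.

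The largest fall in the list was that of Pfkl, the liver-type subunit of phosphofructokinase, the enzyme of the committed step of glycolysis. Pfkl (ENSMUSG00000020277, chr10:77986947-78010083) had 124.2, 131.3 and 128.6 CPM in the NC libraries and 47.4, 48.2 and 43.8 CPM in the miR-497 libraries. All 3 miR-497 libraries lay far below the NC libraries, and the level with miR-497 was 36.3% of that with NC (edgeR log2 fold change -1.46 with SE 0.0597, adjusted p = 8.7e-12). The 3' UTR, 1263 bases long, carries the 2 sites printed above, at bases 132 and 883. The other subunit genes moved less and not in the same direction: Pfkm, the muscle type, rose (edgeR log2 fold change 0.24 with SE 0.0592, adjusted p = 0.0025) from 62.2 ± 1.69 to 73.6 ± 1.38 CPM (SD, n = 3), and Pfkp, the platelet type, fell from 126.0 ± 3.26 to 109.6 ± 4.56 CPM (edgeR log2 fold change -0.20 with SE 0.0532, adjusted p = 0.0045). Of the exon bases of Pfkp, 5.58% overlap Pitrm1 on the other strand, whose reads cannot be told apart unless strand was used. Those of Pfkm overlap other annotated genes on the same strand for 10.2%, where strand would not separate the reads, which also limits the Pfkm shares below. Those of Pfkl overlap no other gene.

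The make-up of the phosphofructokinase transcripts differed between the groups. With levels divided by the length of the merged exons, Pfkl made up 40.6, 41.1 and 40.2% of the 3 genes together in NC and 18.7, 19.7 and 17.8% in miR-497 libraries. Pfkm made up 39.3, 39.4 and 39.6% in NC and 59.0, 59.0 and 59.9% in miR-497 libraries. The share of Pfkp was 19.9% ± 0.392 in NC and 22.0% ± 0.586 with miR-497 (SD, n = 3). Which gene leads depends on the length used, while the directions do not. With the longest protein-coding transcript in place of merged exons, the mean share of Pfkl went from 39.8 to 19.3% and that of Pfkp from 35.2 to 41.0%, and Pfkm made up 24.9 to 25.1% in NC and a mean of 39.7% with miR-497. Without length scaling Pfkl went from 40.5 to 20.2%, Pfkm from 19.7 to 32.0% and Pfkp from 39.8 to 47.7%, so Pfkm led with miR-497 only with merged exons and Pfkp led with the other lengths. Exact 2-sided permutation tests of 3 libraries against 3 cannot go below p = 0.1, which each of these shares reached, with 0.127 after Benjamini-Hochberg adjustment over the 14 shares compared.

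**Figure D1:**
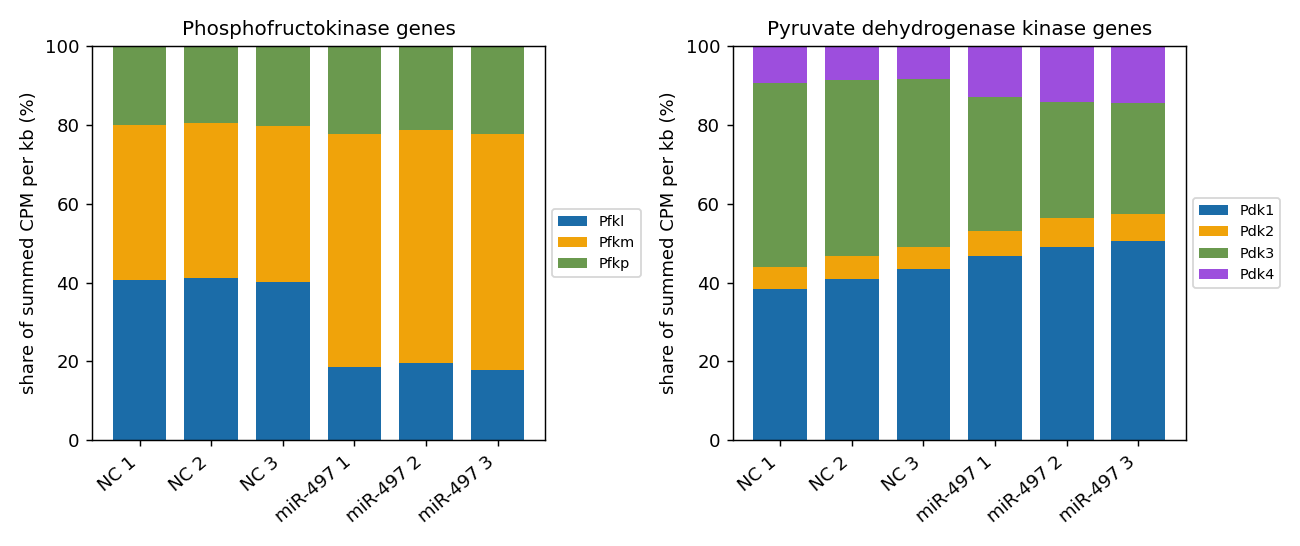
Share of each gene in the summed level (CPM per kb of merged exons, in %) of the phosphofructokinase genes (left) and the pyruvate dehydrogenase kinase genes (right), 1 bar per library. The Pfkl part spans 40.2 to 41.1% in NC and 17.8 to 19.7% in miR-497 libraries, and the Pdk3 part 42.7 to 46.6% in NC and 28.1 to 34.1% in miR-497 libraries.

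Upstream of phosphofructokinase the changes were small and of mixed sign. Slc2a1, the main glucose transporter of endothelial cells, did not pass the test, with 221.1 to 247.0 CPM in NC and 214.8 to 237.0 CPM in miR-497 libraries (log2 fold change -0.04, 95% interval -0.16 to 0.09). Hk1, the hexokinase that held most of the hexokinase transcripts, was also not called (0.04, interval -0.08 to 0.16). Hk2, the inducible hexokinase, fell from 34.7 ± 1.37 to 27.6 ± 0.842 CPM (SD, n = 3), with an edgeR log2 fold change of -0.33 (SE 0.0708, adjusted p = 9e-04). Hk1 made up 85.8 to 86.7% of the pair per length in NC and 88.5 to 89.3% in miR-497 libraries (exact permutation p = 0.1), and the summed hexokinase level stood at 99.6% of NC. Gpi1, which turns glucose 6-phosphate into fructose 6-phosphate, rose from 411.4 ± 16.2 to 497.0 ± 11.9 CPM (edgeR log2 fold change 0.27 with SE 0.0530, adjusted p = 3.8e-04).

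Aldolase was the next step with a large change. Aldoa, the main aldolase outside liver and brain, had 799.2, 827.2 and 825.9 CPM in NC and 474.1, 440.6 and 417.8 CPM in miR-497 libraries. The groups were widely apart, and Aldoa fell to 54.3% of its NC level (edgeR log2 fold change -0.88 with SE 0.0577, adjusted p = 2.3e-09). The short 3' UTR, 185 bases, holds the printed 7mer site and a further 6mer. Aldoc, the brain aldolase, was near the detection limit with 22, 27 and 11 counts in NC and 1, 7 and 12 counts in miR-497 libraries. The ranges overlap, the fitted log2 fold change of -1.41 had an interval of -2.69 to -0.12, and Aldoc was not called (edgeR adjusted p = 0.065); it was called with limma voom (-1.69, adjusted p = 0.039) and without the third miR-497 library (-2.10, edgeR adjusted p = 0.031).

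The lower part of the pathway held both higher and lower genes. Tpi1, which interconverts the triose phosphates that aldolase makes, rose from 536.0 ± 17.1 to 668.5 ± 25.1 CPM (SD, n = 3), with an edgeR log2 fold change of 0.32 (SE 0.0542, adjusted p = 1.1e-04). Gapdh, which makes the first NADH of the pathway and is the most abundant of these transcripts per length (798.6 CPM per kb in NC), was not called at a log2 fold change of 0.01 (interval -0.12 to 0.15). Its NC libraries spanned 3265.6 to 3318.6 CPM and its miR-497 libraries 3142.2 to 3604.6 CPM, so the NC range lies inside the wider miR-497 range.

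Pgk1, phosphoglycerate kinase, had 495.3, 519.2 and 519.5 CPM in NC and 382.3, 357.4 and 329.1 CPM in miR-497 libraries. Every miR-497 library was below every NC library, and Pgk1 fell to 69.7% (edgeR log2 fold change -0.52 with SE 0.0594, adjusted p = 1.5e-06). Pgam1, phosphoglycerate mutase, had 193.8, 217.8 and 215.3 CPM in NC and 116.2, 109.9 and 96.7 CPM in miR-497 libraries. It showed the second largest called fall in the list, to 51.5% of NC (edgeR log2 fold change -0.96 with SE 0.0677, adjusted p = 5.6e-09), and its 3' UTR holds 6mer matches but no 7mer. Of the 50-base words of Pgk1 53.9%, and of those of Pgam1 36.2%, also occur in other genes. The genes that hold the most of these words had at most 9 and 34 counts in any library. How reads with several alignments were counted is not given, so these low counts do not show that no reads were lost. Other large shares in the list were 47.2% for Bnip3, 26.0% for Eno1, 25.8% for Pkm and 25.1% for Gapdh.

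Eno1, the main enolase, fell from 918.9 ± 30.1 to 755.2 ± 55.7 CPM (SD, n = 3), with an edgeR log2 fold change of -0.28 (SE 0.0613, adjusted p = 9.7e-04); its 3' UTR holds the 7mer-A1 match printed above. Eno2, the neuronal enolase, had 66, 67 and 65 counts in NC and 49, 73 and 57 counts in miR-497 libraries. These overlap, at a log2 fold change of 0.00 with an interval of -0.56 to 0.57, too wide to show a change of the size seen in Eno1. Pkm, pyruvate kinase, was not called (log2 fold change 0.06, interval -0.06 to 0.18), although its miR-497 libraries, at 2349.2 to 2387.4 CPM, all lay above its NC libraries, at 2240.3 to 2302.8 CPM.

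**Figure D2:**
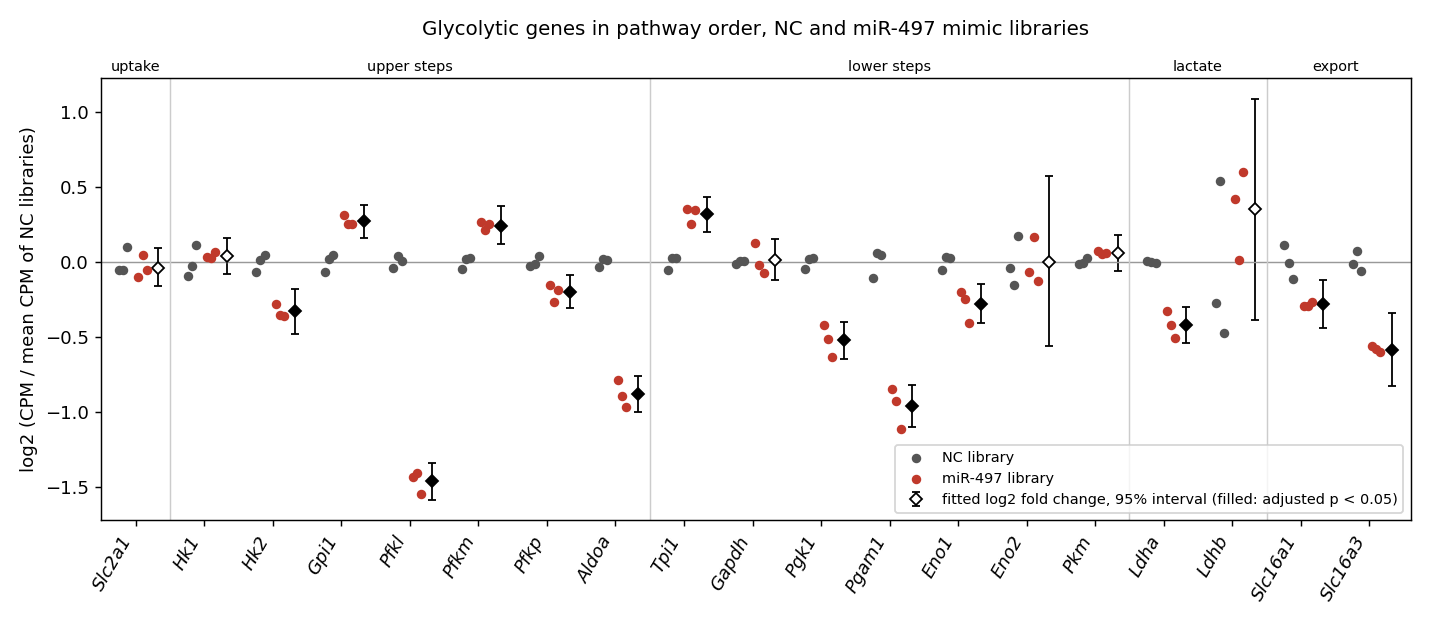
Level of each glycolytic gene in every library relative to the mean of the 3 NC libraries (log2 scale), in pathway order, with the fitted log2 fold change and its 95% interval as a diamond, filled where the gene was called. Pfkl (-1.46), Pgam1 (-0.96) and Aldoa (-0.88) lie lowest, Tpi1 (0.32) is the highest called gene, and Aldoc (1 to 27 counts) is left off.

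Lactate handling was lower at the enzyme and at export. Ldha, which reduces pyruvate to lactate, had 706.2, 702.5 and 699.4 CPM in NC and 559.1, 525.6 and 493.6 CPM in miR-497 libraries, and fell to 74.9% (edgeR log2 fold change -0.42 with SE 0.0565, adjusted p = 1e-05). The miR-497 libraries were all below the closely spaced NC libraries. Ldhb, the form that favours the reverse reaction, had 35, 68 and 26 counts in NC and 43, 41 and 59 counts in miR-497 libraries, which overlap (log2 fold change 0.35, interval -0.39 to 1.09). Ldhb made up at most 0.82% of the pair per length in any library.

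Both monocarboxylate transporters, which carry lactate across the cell membrane, fell. Slc16a3 (MCT4), the HIF-inducible exporter, had 11.9, 12.6 and 11.5 CPM in NC and 8.12, 8.03 and 7.91 CPM in miR-497 libraries. The miR-497 values were tightly grouped below the NC values, at 66.7% (edgeR log2 fold change -0.59 with SE 0.116, adjusted p = 4.4e-04). Slc16a1 (MCT1) was the more abundant of the pair and fell from 36.2 ± 2.90 to 29.8 ± 0.283 CPM (SD, n = 3), with an edgeR log2 fold change of -0.28 (SE 0.0749, adjusted p = 0.0047). Slc16a3 made up 20.2, 22.6 and 22.3% of the pair per length in NC and 18.6, 18.4 and 17.9% in miR-497 libraries, apart but with the smallest p the exact permutation test allows, 0.1.

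Summed over the genes of the list that belong to each step, the transcript level per length shows which steps were lower. Phosphoglycerate mutase (Pgam1 alone) stood at 51.5% of NC, aldolase at 54.3%, phosphoglycerate kinase at 69.7%, lactate dehydrogenase at 75.1%, phosphofructokinase at 78.8% and enolase at 82.2%. Only merged exons were used as lengths for these sums. Where several genes of a step moved differently, the value depends on the length used, so the rank of phosphofructokinase is not firm. The hexokinase, glyceraldehyde-phosphate dehydrogenase and pyruvate kinase steps stood between 99.6 and 104.4%, and both isomerase steps above NC, Gpi1 at 120.8% and Tpi1 at 124.7%. Adding tested genes of the same step from outside the list, a choice made after seeing the data, left hexokinase (Hk3 added) at 99.7% and enolase (Eno3) at 83.4%. It moved the mutase step, with Pgam2, to 61.2% (112.3 ± 6.73 to 68.7 ± 5.43 CPM per kb, SD, n = 3), so that aldolase was then the lowest. Phosphofructokinase, whose subunit gene Pfkl fell most, was among the least abundant steps in both groups (47.2 ± 1.16 and 37.2 ± 0.707 CPM per kb, SD, n = 3), next to hexokinase (42.0 ± 2.80 and 41.8 ± 0.510). These are transcript sums and no measure of enzyme activity or flux.

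**Figure D3:**
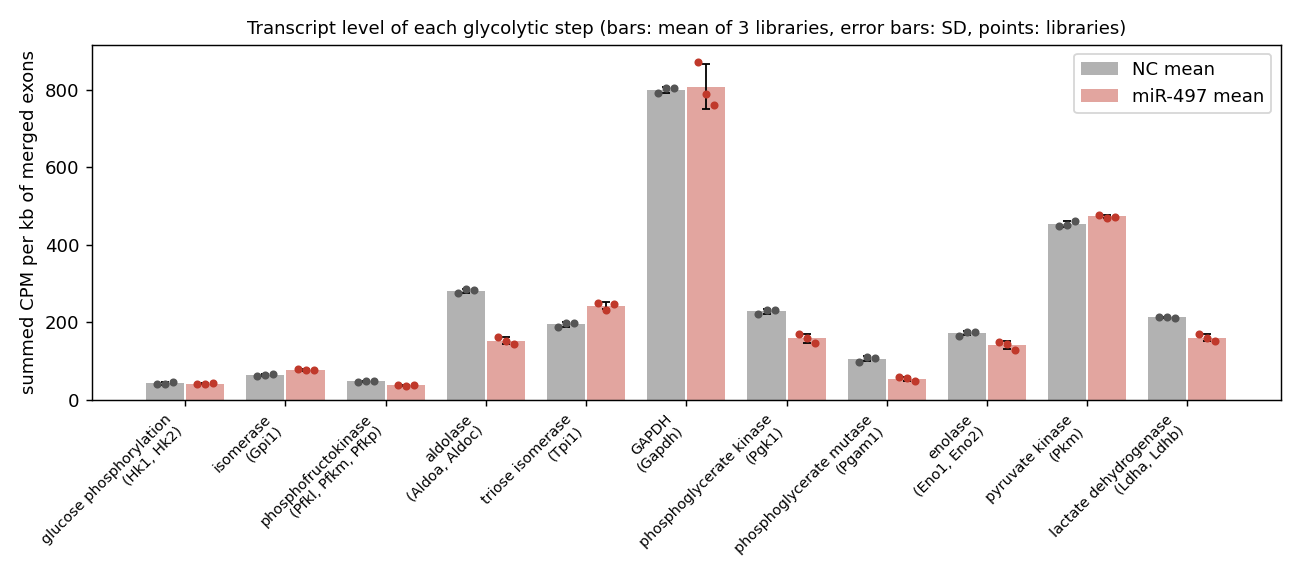
Summed level of the genes of the list in each glycolytic step (CPM per kb of merged exons); bars are means of 3 libraries, error bars SD, points libraries, grey NC and red miR-497. Aldolase stands at 281.0 against 152.7 and phosphoglycerate mutase (Pgam1 alone) at 105.4 against 54.3 CPM per kb, while the GAPDH points of the groups overlap.

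At the branch into the mitochondria, the pyruvate dehydrogenase kinases, which switch off pyruvate dehydrogenase, moved in opposite directions. Pdk3 had 34.1, 32.7 and 32.0 CPM in NC and 26.4, 21.0 and 19.5 CPM in miR-497 libraries, and fell to 67.6% (edgeR log2 fold change -0.56 with SE 0.0976, adjusted p = 1.2e-04). Pdk4, the kinase induced by fasting and lipid signals, had 9.44, 8.63 and 8.60 CPM in NC and 13.6, 14.0 and 13.8 CPM in miR-497 libraries, and rose to 155.2% (edgeR log2 fold change 0.63 with SE 0.109, adjusted p = 1.2e-04) although its 3' UTR carries the 7mer site printed above. For both kinases the groups were apart, Pdk3 below and Pdk4 above.

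Pdk1, the HIF-inducible kinase, rose from 91.7 ± 6.98 to 107.3 ± 2.15 CPM (SD, n = 3), with an edgeR log2 fold change of 0.23 (SE 0.0608, adjusted p = 0.0049); without the first NC library it was 0.16 with an edgeR adjusted p of 0.053. Pdk2 was not called at 0.25 (interval -0.09 to 0.58). Pdk3 made up 42.7 to 46.6% of the 4 genes per length of merged exons in NC and 28.1 to 34.1% with miR-497, and Pdk1 38.3 to 43.5% and 46.7 to 50.6%. With the longest protein-coding transcript Pdk1 had the larger mean share in both groups (46.4 and 54.6%, beside 40.9 and 27.7% for Pdk3), and so it did without length scaling (66.1 and 71.8%, beside 23.8 and 14.9%), so the shares moved the same way but no change of the leading gene can be read from them. The share of Pdk4 was 8.80% ± 0.555 in NC and 13.9% ± 0.930 with miR-497 (SD, n = 3). For each of the 4 shares the groups were apart, with exact permutation p = 0.1 and 0.127 after adjustment.

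Pfkfb3 and Pfkfb4, which make and break down fructose 2,6-bisphosphate, the activator of phosphofructokinase, did not pass the test. Pfkfb3, the main form in endothelial cells, was nearly level at 106.6 ± 3.05 and 108.9 ± 2.43 CPM (SD, n = 3; log2 fold change 0.03, interval -0.08 to 0.14). Pfkfb4 had 7.49 to 7.92 CPM in NC and 8.30 to 11.6 CPM in miR-497 libraries (log2 fold change 0.30, edgeR adjusted p = 0.09), apart but widely spread; without the third miR-497 library it was called at 0.40 (edgeR adjusted p = 0.039).

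Of the 9 other hypoxia-responsive genes, 4 were higher, 2 lower and 3 not called, beside 23.8% higher and 26.0% lower over all genes tested. Car9, the membrane carbonic anhydrase and a classic HIF1 target, had 101, 95 and 49 counts (3.05, 2.60 and 1.74 CPM) in NC and 145, 190 and 186 counts (5.77, 5.98 and 6.10 CPM) in miR-497 libraries. The lowest miR-497 library was well above the highest NC library, and Car9 rose 2.40-fold, the largest rise in the list (edgeR log2 fold change 1.26 with SE 0.218, adjusted p = 1.2e-04). Its level stayed low, at 2.58 CPM per kb with miR-497, and 9.29% of its exon bases overlap a gene on the other strand.

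Ankrd37, another small HIF target, moved the other way. It had 59, 70 and 54 counts (1.78, 1.92 and 1.92 CPM) in NC and 22, 38 and 31 counts (0.875, 1.20 and 1.02 CPM) in miR-497 libraries. The groups were apart, and Ankrd37 fell to 55.3% (edgeR log2 fold change -0.85 with SE 0.311, adjusted p = 0.031). That call was lost with DESeq2 (adjusted p = 0.056) and when the second or the third NC library, or the first or the third miR-497 library, was left out (edgeR adjusted p = 0.064 to 0.093). In addition 26.4% of its exon bases overlap genes on the other strand, whose reads cannot be told apart without strand information.

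Ddit4 (REDD1), an inhibitor of mTORC1, rose from 135.3 ± 2.35 to 187.3 ± 9.05 CPM (SD, n = 3), with an edgeR log2 fold change of 0.47 (SE 0.0527, adjusted p = 1.3e-06). Ndrg1, a stress-response gene, was called narrowly at 0.34 (edgeR adjusted p = 0.044) with overlapping groups, 8.60 to 9.75 CPM in NC and 9.54 to 13.2 CPM in miR-497 libraries. Its call was lost with DESeq2 (adjusted p = 0.065) and on leaving out any library but the second miR-497 library (edgeR adjusted p = 0.058 to 0.18). Bnip3, a mitophagy receptor, was at 6.51 ± 0.557 and 6.58 ± 1.56 CPM (SD, n = 3), not called. Also not called were P4ha1, a collagen prolyl hydroxylase (log2 fold change 0.10), and Higd1a, a respiratory-chain factor (-0.17); of their exon bases, 22.3% for Bnip3 and 22.5% for Higd1a overlap genes on the other strand.

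The prolyl hydroxylases that sense oxygen changed in opposite directions. Egln3 (PHD3) had 143.8, 143.0 and 151.4 CPM in NC and 114.3, 111.0 and 110.3 CPM in miR-497 libraries, and fell to 76.6% (edgeR log2 fold change -0.39 with SE 0.0507, adjusted p = 7.6e-06). Its 3' UTR holds the printed 8mer and a 7mer. Egln1 (PHD2), the main oxygen sensor in most cells, rose from 46.1 ± 3.31 to 55.4 ± 4.60 CPM (SD, n = 3), with an edgeR log2 fold change of 0.26 (SE 0.0773, adjusted p = 0.0089). Egln3 remained the more abundant transcript per length, with 81.4, 81.4 and 80.4% of the pair in NC and 72.3, 72.5 and 74.8% in miR-497 libraries (exact permutation p = 0.1).

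**Figure D4:**
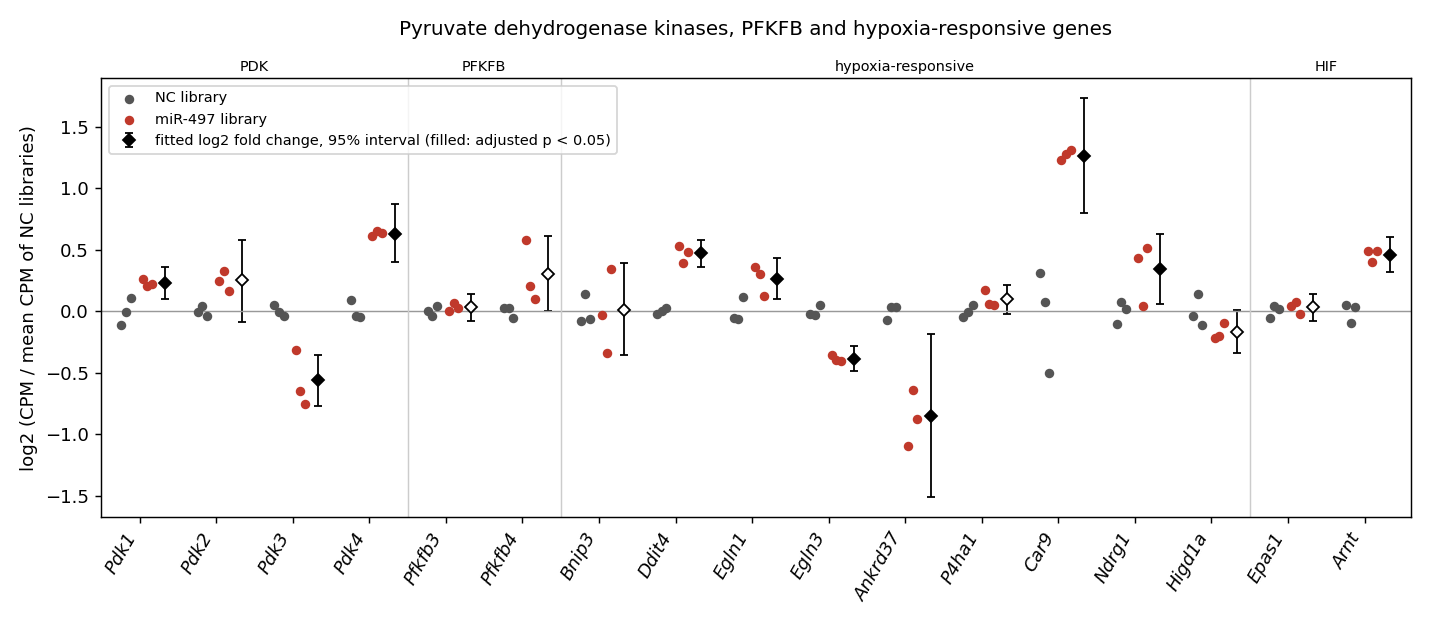
Level of the pyruvate dehydrogenase kinases, PFKFB genes, hypoxia-responsive genes and HIF subunits in every library relative to the mean of the 3 NC libraries (log2 scale), with the fitted log2 fold change and its 95% interval as a diamond, filled where the gene was called. Car9 (1.26) is highest and Ankrd37 (-0.85) lowest, both with wide intervals; Hif1a, listed at 0, cannot be drawn.

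The HIF subunits themselves were measured for 2 of 3 genes. Arnt, the common partner, had 53.5, 48.3 and 52.9 CPM in NC and 72.3, 67.9 and 72.3 CPM in miR-497 libraries; all miR-497 libraries were above, and Arnt rose to 137.5% (edgeR log2 fold change 0.46 with SE 0.0656, adjusted p = 1.8e-05). Epas1 (HIF-2 alpha), the alpha subunit typical of endothelium, had 176.6, 188.4 and 185.4 CPM in NC and 188.7, 193.1 and 180.1 CPM in miR-497 libraries. These values overlap, and Epas1 was not called (log2 fold change 0.03, interval -0.08 to 0.14), with a 7mer site in its 3' UTR. Hif1a was listed at 0, 0 and 0 counts in NC and 0, 0 and 0 counts in miR-497 libraries. B2m, which nearly every cell expresses, and G6pdx and Txnip were listed at 0 as well, so no level of Hif1a can be read from this table and its share with Epas1 was not computed.

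Neighbouring genes of the pathway give the setting, beside 23.8% of all genes tested called higher and 26.0% called lower. Of 40 tested further HIF targets 15 were higher and 10 lower (median log2 fold change 0.04), with Cxcr4, a chemokine receptor, the largest rise (0.99, edgeR adjusted p = 1e-09) and Ak4, a mitochondrial adenylate kinase, the largest fall (-1.59, edgeR adjusted p = 2.9e-09). Vegfa, the endothelial growth factor and classic HIF target, fell from 20.7 ± 1.37 to 9.11 ± 0.914 CPM (SD, n = 3), an edgeR log2 fold change of -1.18 (adjusted p = 1e-07). The HIF targets of the list and outside it thus held Car9 and Cxcr4 among the higher and Vegfa, Ak4 and Pgk1 among the lower genes. The longest 3' UTRs of Vegfa and Ak4 each hold an 8mer, while those of Car9, Cxcr4 and Pgk1 hold no 7mer or 8mer. The part of these sites was not tested.

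Among 15 regulators and partners of HIF, 5 were higher and 5 lower (median -0.11), beside 23.8% and 26.0% of all genes tested. Vhl, which binds hydroxylated alpha subunits, rose from 56.9 ± 2.92 to 88.0 ± 3.89 CPM (SD, n = 3), an edgeR log2 fold change of 0.63 (adjusted p = 3.6e-07). Arnt2, a paralog of Arnt, had the largest rise (1.35, edgeR adjusted p = 4.6e-05) and Egln2, the third prolyl hydroxylase, the largest fall (-0.94, edgeR adjusted p = 1.1e-08). The longest 3' UTR of Egln2 holds 2 7mer sites, that of Arnt2 holds 1, and that of Vhl holds no 7mer or 8mer.

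The next 3 lists are also set beside 23.8% higher and 26.0% lower over all genes tested. For pyruvate entry into mitochondria, 1 of 11 genes was higher (Pdp2, a phosphatase that reverses the kinases, 0.33, edgeR adjusted p = 0.017) and 3 lower, of which Pcx, pyruvate carboxylase, fell most (-0.54, edgeR adjusted p = 7.1e-05). In the pentose phosphate pathway 2 of 7 genes were higher and 3 lower, from Taldo1, transaldolase (0.42, edgeR adjusted p = 6.8e-06), to Pgd, which makes NADPH (-0.33, edgeR adjusted p = 1.1e-04). Of 15 further glycolysis genes 2 were higher and 6 lower, from Pgam2, the muscle mutase (1.06, edgeR adjusted p = 2.8e-05), to Arrdc4, an inhibitor of glucose uptake (-0.43, edgeR adjusted p = 0.026). Pgam2 rose from 5.78 ± 1.40 to 12.1 ± 0.503 CPM (SD, n = 3), or from 6.88 to 14.5 CPM per kb, far below Pgam1 at 105.4 and 54.3 CPM per kb. Among the lower genes were Pfkfb1, a further enzyme that makes and breaks down fructose 2,6-bisphosphate (-0.26, edgeR adjusted p = 0.039), and Tigar, which breaks it down (-0.24, edgeR adjusted p = 0.0077), both named after their values were seen. The call of Pfkfb1 was lost with DESeq2 (adjusted p = 0.1), with the replicate block (edgeR adjusted p = 0.065), with upper quartile scaling (0.093) and on leaving out any library but the third NC library (edgeR adjusted p = 0.056 to 0.13), and that of Tigar without the third NC library (edgeR adjusted p = 0.055). Myc, a transcription factor that drives many glycolysis genes, was slightly lower (-0.17, edgeR adjusted p = 0.014). Leaving out 1 library ended the calls of Pdp2 (the first NC or the second miR-497 library), of Arrdc4 (the third NC or the third miR-497 library) and of Myc (the second NC or the third miR-497 library). It took the higher pyruvate genes to 0 (the first NC or the second miR-497 library) or 2 (the third NC library), and the lower further glycolysis genes to 3 (the third NC or the third miR-497 library).

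The seed matches were then set beside the changes. A 7mer or 8mer was found in 13 of the 37 tested genes of the list (35.1%), beside 3617 of the 12859 tested genes with an annotated 3' UTR (28.1%). Of the 13, 7 were lower (Pfkl, Aldoa, Slc16a3, Egln3, Hk2, Eno1 and Pfkp), 1 was higher (Pdk4) and 5 were not called (Higd1a, Slc2a1, Pfkfb3, Epas1 and P4ha1). Their median log2 fold change was -0.20, beside -0.17 over all tested genes with such a site, of which 40.9% were lower and 18.2% higher.

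Of the 24 genes of the list without a 7mer or 8mer, 6 were lower (Pgam1, Ankrd37, Pdk3, Pgk1, Ldha and Slc16a1) and 9 higher, with a median of 0.14, beside 0.02 over all tested genes without one, of which 23.5% were lower and 28.3% higher. Larger falls in the list were found in both sets of genes. Pfkl, Aldoa and Slc16a3 have a 7mer or 8mer, while Pgam1, Pgk1 and Pdk3 do not. Of the 13 genes with such a site 7 were lower and 5 did not pass the test, beside 6 lower of the 24 without. A link between these sites and the direction of change was not tested. With the shortest annotated 3' UTR in place of the longest, 9 genes of the list kept a site. A match in the letters does not show that the microRNA binds there.

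**Figure D5:**
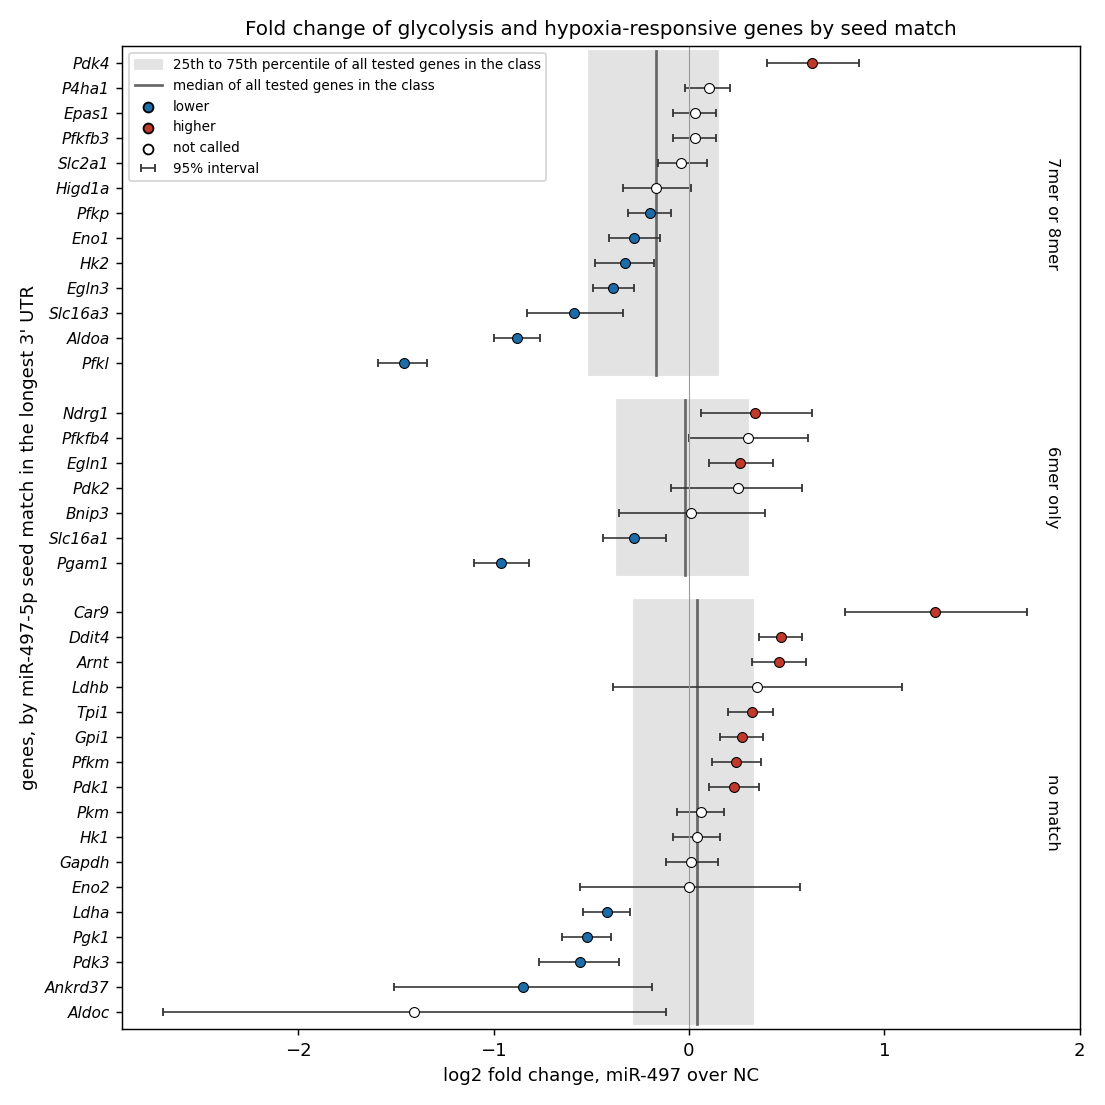
Log2 fold change (miR-497 over NC) of the 37 tested genes with 95% intervals, grouped by the longest seed match in the 3' UTR; the grey band runs from the 25th to the 75th percentile of all tested genes of that class and the dark line is their median. The classes hold 13, 7 and 17 genes, and Pfkl (-1.46) lies far to the left of the band of genes with a 7mer or 8mer.

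The core letters of the hypoxia response element were searched in the RefSeq promoter windows (GRCm38.p6), 250 bases before to 50 after each start, as ACGTG and its reverse complement CACGT; the palindrome CACGTG counts as a match on both strands. Of 36 genes of the list with a window, 25 (69.4%) held a match, Hif1a, which was not tested, among them. Beside this stand 28.9% of 10115 tested genes with a window and an annotated 3' UTR, and 21.8% of the 27025 genes with a window. The list was chosen in part for hypoxia-responsive genes, so its higher share could be foreseen and is no separate result. Genes of both directions held a match: 4 of 9 higher genes (Pfkm, Ddit4, Egln1 and Car9), 10 of 13 lower genes and 10 of 13 genes not called. Pfkl, Pfkp and Eno1 were the lower genes without one. A link between the match and direction was not tested. Such short words also occur in sites of other factors, and none of these data measure binding.

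The upstream stretch of Ldha is printed beside those of Pgk1 and Pgam1, also lower, and of Pfkm, which was higher. Ldha has 2 windows, with 5 and 0 matches, and Pfkm has 4, with 3, 1, 0 and 0; the window with the most matches is the one shown for both, while Pgk1 and Pgam1 have 1 window each. Each stretch is the 160 bases before the start of that window, read 5' to 3' on the plus strand, with ACGTG and CACGT in capitals. In Ldha the palindrome CACGTG begins 145 and 48 bases before the start, with a further CACGT at 34; in Pgk1 the matches begin at 150 and 131, in Pgam1 at 114 and in Pfkm at 136 bases.
Ldha, chr7:46845644-46845803: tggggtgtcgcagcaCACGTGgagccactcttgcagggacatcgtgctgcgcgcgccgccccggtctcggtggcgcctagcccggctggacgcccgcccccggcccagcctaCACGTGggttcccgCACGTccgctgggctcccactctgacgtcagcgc
Pfkm, chr15:98092429-98092588: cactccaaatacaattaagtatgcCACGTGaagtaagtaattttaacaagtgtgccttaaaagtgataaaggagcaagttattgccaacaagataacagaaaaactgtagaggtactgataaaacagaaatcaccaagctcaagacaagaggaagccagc
Pgam1, chr19:41911711-41911870: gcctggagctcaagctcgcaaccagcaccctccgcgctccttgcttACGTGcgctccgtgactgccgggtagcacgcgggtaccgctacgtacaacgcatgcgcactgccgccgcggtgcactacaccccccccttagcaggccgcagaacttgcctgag
Pgk1, chrX:106186940-106187099: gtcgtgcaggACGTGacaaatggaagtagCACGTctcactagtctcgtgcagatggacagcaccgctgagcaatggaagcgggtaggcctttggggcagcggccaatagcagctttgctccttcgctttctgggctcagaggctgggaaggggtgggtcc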

How the data were processed

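Poly(A) RNA-seq counts of 6 ADC106 libraries were used, 3 with the NC and 3 with the miR-497 mimic. The deposited values are whole-number counts of reads per Ensembl gene, not normalized by the authors. STAR 2.5.4b, featureCounts with Subread 1.6.1, edgeR 3.32.1 and the build GRCm38 are named in the submitters' processing notes; the annotation release and the handling of strand and of reads with several alignments are not given in the sources used here.

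Groups and replicate numbers came from the sample titles. Symbols were attached by identifier from GENCODE M21, which matched 55141 of 55401 identifiers, and 2 genes of the list (Ndrg1 and Epas1) had no RefSeq promoter window. Genes were filtered with filterByExpr in edgeR 4.0.16 (R 4.3.3; minimum count 10, minimum total 15) and scaled by TMM. A quasi-likelihood F-test with the group as its only term was run over all 14661 genes kept, 2-sided, with Benjamini-Hochberg adjustment and a threshold of 0.05; it was tested on simulated counts. CPM are on the same scale, and levels per kb use the merged exons of M21. Shares were compared with exact permutation tests (scipy 1.17.1).

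The genes and lists were chosen with earlier results of these data known. Values in every library are given for called genes with an absolute log2 fold change of at least 0.5, for the HIF subunits and for tested genes under 50 counts in any library; from the lists outside the 38 genes, the called genes with the largest rise and fall are named, with Vegfa, Vhl and Myc. Values in every library are also given for Ldha and Egln3, and this was decided after their values were seen. Alternatives were other scalings, filters, DESeq2 1.42.0, limma voom (3.58.1), the replicate number as a block and each library left out. Another gene length for the shares, and further genes in the step sums, were added after seeing the data. Totals of 25777676 to 36159499 counts per library make counting error small for all but 5 tested genes of the list (Aldoc, Eno2, Ldhb, Ankrd37 and Car9), each with under 50 counts in some library.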

Additional observations from a re-analysis of the deposited data

How the results depend on the processing

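For the 23 called genes of the list, 305 of 321 refits kept the direction and the call, 16 kept the direction but lost the call (those of Ankrd37, Ndrg1 and, once, Pdk1), and none reversed. Over all settings 8 to 11 genes of the list were higher and 12 to 14 lower. Genes not called changed sign in 18 of 194 refits, never with a call: Slc2a1 at 0.01 (upper quartile scaling), Gapdh at -0.00236 (total counts), Eno2 at -0.0149 (total counts) and -0.00487 (no filter), and Bnip3 at -0.02 (limma voom), besides those on leaving out 1 library. Leave-one-out log2 fold changes ran from -0.08 to 0.03 for Slc2a1, from -0.01 to 0.11 for Hk1, from -0.04 to 0.06 for Gapdh, from -0.095 to 0.10 for Eno2, from -0.18 to 0.17 for Bnip3 and from -0.01 to 0.06 for Epas1. Aldoc, Pfkfb4 and, with upper quartile scaling, P4ha1 (0.14, edgeR adjusted p = 0.031) gained a call in 4 refits.

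Deviations of same-numbered libraries correlated at -0.119, -0.0351 and -0.133. No pairing by replicate number was thus seen, which does not show that there was none. With the replicate block 9 genes of the list were higher and 12 lower (3177 and 3563 over all genes), Ankrd37 (edgeR adjusted p = 0.06) and Ndrg1 (0.068) lost their calls, and Eno2 (-0.00023) and Bnip3 (-0.01) changed sign. Ndrg1 also lost its call with total counts (0.063) and limma voom (0.066).

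Upper quartile scaling raised the higher genes to 2 for pyruvate entry, 4 for the pentose phosphate pathway and 4 for the further glycolysis genes; leaving out single libraries gave 0 to 2 higher for pyruvate entry and 3 to 5 lower for the further glycolysis genes. No share changed its direction with another gene length or a library left out; the Pfkp difference was 2.07 percentage points with merged exons, 5.79 with the longest protein-coding transcript and 7.87 without length scaling. Low counts limit Aldoc, Eno2, Ldhb, Ankrd37 and Car9.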

Other observations

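Mpc1, a subunit of the carrier that brings pyruvate into mitochondria, varied between libraries more than between groups. It had 21.4, 4.30 and 5.33 CPM in the NC libraries and 3.42, 8.78 and 3.25 CPM in the miR-497 libraries, so the first NC library stands apart, and it was not called (fitted log2 fold change -1.0, edgeR adjusted p = 0.09). Its partner Mpc2 was steady at 21.2 to 25.4 CPM in NC and 20.9 to 22.0 CPM in miR-497 libraries. Mpc1 and Mpc2 were named here after their values were seen.

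The spread between miR-497 libraries was wide for Gapdh, often taken as a reference gene, with an SD of 240.6 CPM against 30.3 CPM in NC. Gapdh was not alone in this. The SD was also larger with miR-497 for Ldha (32.7 against 3.38 CPM), Eno1 (55.7 against 30.1 CPM) and Pgk1 (26.6 against 13.9 CPM). It was smaller for Pkm (19.4 against 32.4 CPM) and Hk1 (4.55 against 22.1 CPM). Gapdh, Ldha, Eno1 and Pgk1 were each highest in the first and lowest in the third miR-497 library. Among the protein-coding identifiers of the table, 5038 of 21897 were at 0 in all libraries, Hif1a among them.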
